A study of Rattus norvegicus with 8 samples.

Results

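Immediate early genes are transcribed within minutes of a stimulus, without new protein synthesis, and were followed here through 10 of them: Fos, Fosb, Junb, Egr1, Egr2, Nr4a1, Npas4, Arc, Ier2 and Dusp1. The members were chosen by name, as all probes for biological targets (not array controls) that carry one of these gene names, out of 26334 gene names on the array. Each of the 10 is read by 1 probe, and together they fill 46 spots on every array. The samples were right retinas of female Lister Hooded rats 8 weeks old. In the 4 ONC rats the right optic nerve was crushed with forceps, 3 mm behind the optic disc and for 10 s, and in the 4 CTR rats the same surgery was done without closing the forceps. Retinas were taken 2 weeks after surgery, and RNA from whole retina was hybridized in 2 colors, 1 retina in each channel, on 4 arrays of a single slide.

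Calcium entry, growth factor receptors and stress kinases drive these genes through pre-existing factors, chiefly serum response factor with its ternary complex partners and CREB. Their products are mostly short-lived transcription factors, along with proteins that act at the synapse or switch off the kinases that induced them. In the retina they are known to respond to light, to depolarization and to axon injury of ganglion cells, and also to the handling of tissue after death.

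By the labels, array 1 carries CTR1 and ONC1, array 2 carries CTR2 and ONC2, and so on, with every CTR retina in Cy5 (red) and every ONC retina in Cy3 (green). An effect of the crush thus cannot be told apart from an effect of the dye. The methods instead describe arrays that hold retinas of the same group in both colors, and the labels were followed. Marker genes were read beside the tissue label. The list for bipolar cells, interneurons of the retina, was measured for all of its 8 genes. The gene with its brightest signal, Otx2, lay between 5.55 and 6.06 log2 units above the channel median in the 8 channels. Genes of other lists were bright too, Kdr of endothelium and pericyte at 6.03 to 6.72 and Ttr of pigment epithelium at 4.44 to 6.04. A bright marker thus does not show how pure the retina was, and purity was not tested. In the comparison of ONC with CTR limma called 0 of these 8 bipolar genes, 3 had an unadjusted p under 0.05, and their median log2 difference was 0.13. Markers of retinal ganglion cells, the neurons whose axons form the optic nerve, went against the labels. Of their 14 genes 12 were measured; Pou4f1 was not found by that name, and Nrn1 did not pass the spot filter. The median deviation of the list from each gene's mean over the 8 channels was -1.39, 0.99, -0.98 and -0.88 in the channels labeled CTR and 0.98, 1.13, 1.28 and -1.02 in those labeled ONC, here and below in the order of their numbers. CTR2 thus sat with ONC1, ONC2 and ONC3 at the high end, and ONC4 sat with CTR1, CTR3 and CTR4 at the low end. The study reports a loss of DiI-filled ganglion cells after crush. It also reports less Tubb3 and Nefm in ONC, both on its arrays and by qPCR in other animals. By the labels followed here, the list was instead higher in ONC on these arrays, opposite to the study's array result. Every direction given for ONC against CTR rests on these labels, and whether channels were exchanged was not tested. The differences of the measured members are therefore given for the channels as labeled, and also without CTR2 and ONC4.

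A spot was kept when it carried no outlier mark and its brightness was at least 2 times the local background in all 8 channels. Of the 10 members 8 passed, among 16307 genes that did, and Egr2 and Npas4 did not. Levels are log2 intensities relative to the median of the channel, so 0 is the median of the channel. They are not compared between genes, because each probe has its own brightness. Median spot brightness over median background was 446.6 to 626.0 over 55.0 to 56.5 in the CTR channels and 218.1 to 494.7 over 26.0 to 29.5 in the ONC channels. The brightness of each member's spot relative to its background shows why Egr2 and Npas4 could not be measured.

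**Figure D1:**
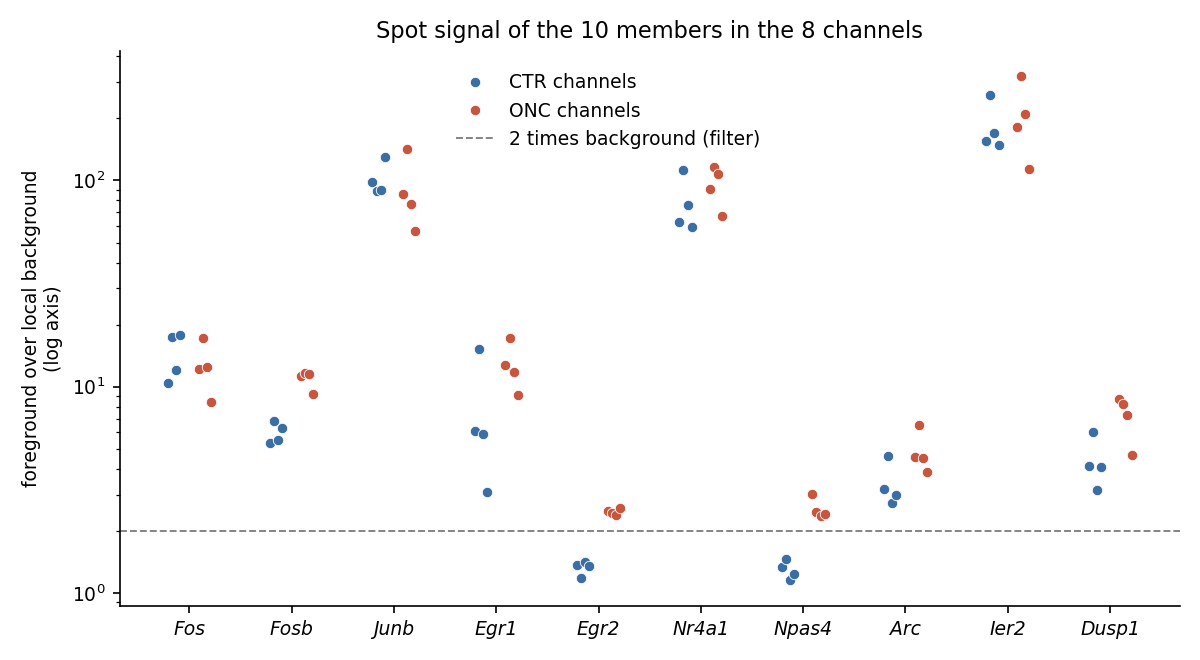
Spot brightness over local background (log axis) for the 10 members in the 4 CTR and 4 ONC channels, as the median over spots; the dashed line marks the filter at 2 times background. Egr2 and Npas4 lie between 1.15 and 1.46 in the CTR channels, under the line.

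In the comparison of ONC with CTR, which asks what the crushed nerve's retina expresses differently, 0 of the 8 measured members passed limma's test at an adjusted p under 0.05, where 81 of all 16307 genes (0.497%) did, 38 of them higher (0.233%) and 43 lower (0.264%) in ONC. At an unadjusted p under 0.05 the count was 3 members (Fos, Fosb and Junb), beside 3025 genes (18.6%). With the array as a block, so that each ONC retina was compared with the CTR retina of the same array, limma called 2 of 8 members, Fosb higher and Junb lower in ONC, beside 1254 genes (7.69%). By direction those backgrounds were 3.08% of genes called higher and 4.61% called lower. With CTR2 and ONC4 left out, 0 of 8 members were called by limma, beside 415 genes (2.54%). The methods' t-test on single genes gave 1 member (Fos) at p under 0.05, beside 16.4% of genes. Its combination with the methods' fold-change threshold gave 0 members, beside 503 genes (3.08%). The study, with its own normalization, reports fewer genes by this criterion. The median log2 difference, ONC minus CTR, was -0.03 over the 8 measured members and -0.01 over all genes, and 4 members were higher and 4 lower. With each channel scaled by its median and no loess, these medians were 0.23 and 0.07, and limma called 4 of the 8 members (2 higher and 2 lower in ONC), beside 3194 genes (19.6%). The plot of levels by channel shows the 8 measured members, gene by gene.

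**Figure D2:**
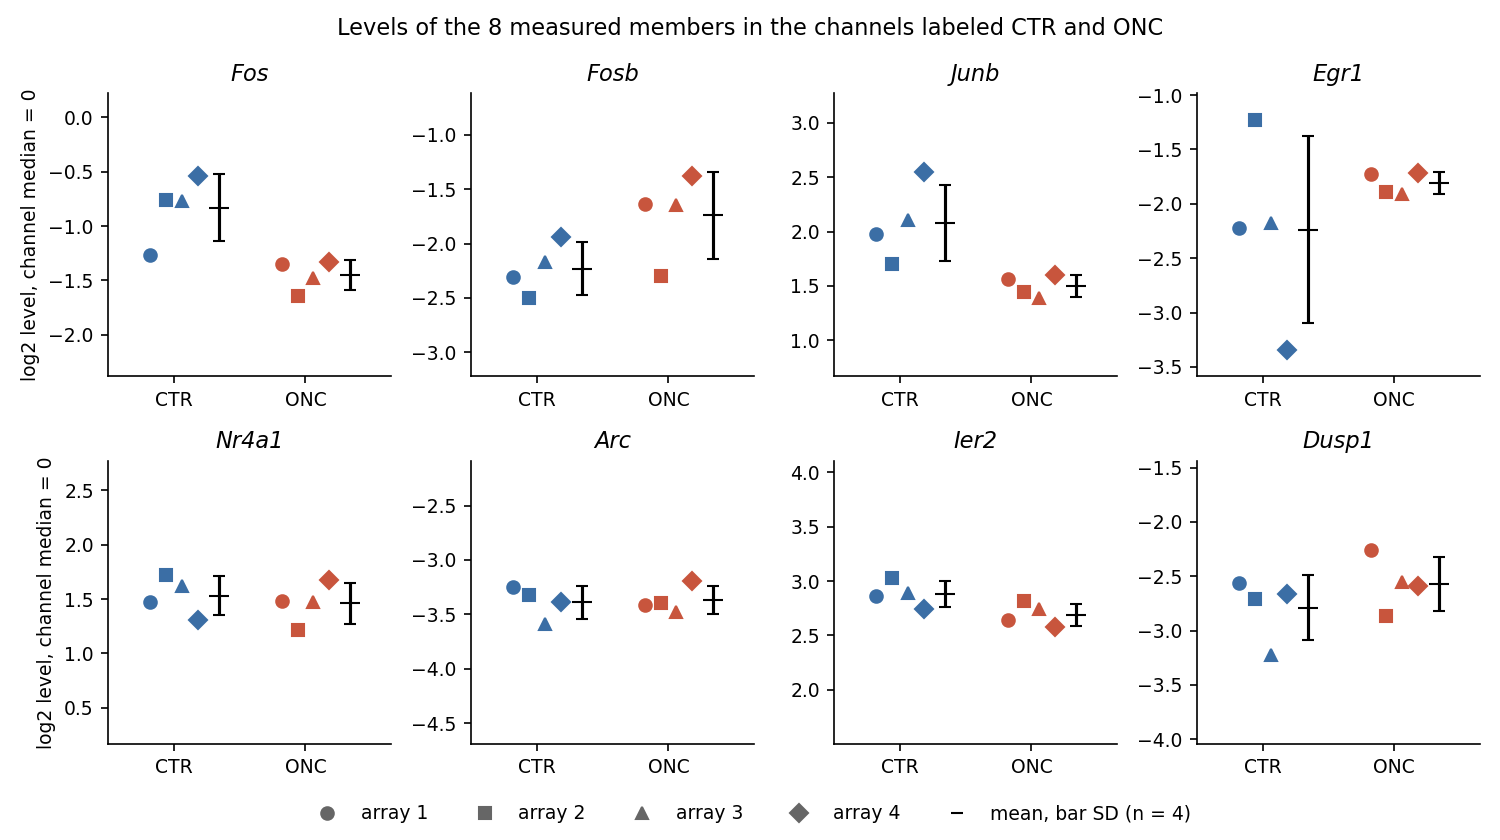
Log2 level relative to the channel median for the 8 measured members in the channels labeled CTR (blue) and ONC (red), with the array given by the marker shape; bars are the mean and SD of 4 channels, and each panel spans the same number of log2 units. The groups are separate for Fos and Junb and overlap for the others.

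The AP-1 subunits had the 3 largest differences among the 8 measured members in the channels as labeled with loess. This order did not hold without CTR2 and ONC4 (Egr1 0.74, Fosb 0.28) or with median scaling (Egr1 0.65, Fos -0.55). Nor did it hold with processed signals (Egr1 0.74, Fosb 0.52), without CTR2 (Egr1 0.77, Fosb 0.40) or without ONC4 (Egr1 0.40, Fosb 0.37). AP-1 is a dimer of a Fos family and a Jun family protein that binds TGAGTCA and related sites. Fosb and Junb were called with the array as a block, and Ier2 had the most even difference over the arrays, so the 250 bases before the start site of each are shown. They are RefSeq sequence on the GRCr8 assembly, Fosb from chr1:88089185-88089434 (minus strand), Junb from chr19:40080876-40081125 (plus strand) and Ier2 from chr19:40399123-40399372 (plus strand). Capitals mark matches on either strand to the cAMP response element TGACGTCA, its shorter form TGACG, the TATA box TATAAA or the serum response CArG box.
Fosb: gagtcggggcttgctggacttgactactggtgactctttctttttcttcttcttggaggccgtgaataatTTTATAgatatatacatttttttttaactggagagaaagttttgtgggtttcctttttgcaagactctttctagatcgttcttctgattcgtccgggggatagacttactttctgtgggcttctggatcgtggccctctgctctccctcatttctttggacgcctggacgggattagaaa
Junb: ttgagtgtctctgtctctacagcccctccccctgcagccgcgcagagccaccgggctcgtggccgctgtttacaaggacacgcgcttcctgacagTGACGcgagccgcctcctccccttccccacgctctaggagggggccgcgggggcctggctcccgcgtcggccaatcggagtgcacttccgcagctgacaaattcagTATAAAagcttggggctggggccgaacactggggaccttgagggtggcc
Ier2: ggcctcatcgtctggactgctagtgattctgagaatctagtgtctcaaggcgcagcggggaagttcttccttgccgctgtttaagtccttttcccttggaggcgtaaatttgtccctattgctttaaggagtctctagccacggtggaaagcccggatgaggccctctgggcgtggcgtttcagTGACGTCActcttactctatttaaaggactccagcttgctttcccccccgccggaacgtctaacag
The Junb window holds TGACG at -155 to -151 and TATAAA at -49 to -44, counted back from the start site. The Fosb window holds TATAAA on the minus strand at -180 to -175, read as TTTATA in the printed strand. Ier2 holds the full TGACGTCA at -66 to -59, a palindrome in which TGACG overlaps itself on both strands. Of the 10 members 8 had a promoter in the table, all but Fos and Arc. TGACG was found in 6 of them (Junb, Egr1, Egr2, Nr4a1, Ier2 and Dusp1), beside 18.2% of 33469 promoters of the same length. TGACGTCA was found in 2 of them (Ier2 and Dusp1), beside 1.59% of promoters. The CArG box was found in Egr1, with 2 matches, and in Egr2, beside 1.50% of promoters. TATAAA was found in 2 (Fosb and Junb), beside 12.9%. The AP-1 site TGAGTCA and the EGR site GCGTGGGCG were in 0 of the 8, beside 4.05% and 0.478% of promoters. These matches describe letters in a window and were not tested as sites.

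Fos encodes the c-Fos subunit, a widely used marker of recent neuronal activity. Its level was -1.27, -0.76, -0.77 and -0.54 in the CTR channels and -1.35, -1.64, -1.48 and -1.33 in the ONC channels. The groups did not overlap, although CTR1 lay close to the ONC channels. The mean was -0.83 ± 0.31 (SD, n = 4) in CTR and -1.45 ± 0.14 (SD, n = 4) in ONC, a difference of -0.62 (standard error 0.15, 95% interval -0.97 to -0.27) or a level 1.53 times as high in CTR. It did not pass limma's test (adjusted p 0.0891, and 0.0524 with the array as a block). On the single arrays the difference was -0.08, -0.88, -0.71 and -0.79, so array 1 gave almost none of it. Without CTR2 and ONC4 it was -0.63 (limma adjusted p 0.113).

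Fosb encodes the partner that yields FosB and the long-lived splice form that builds up with repeated stimulation. Which of these forms the probe reads was not tested. It lies at chr1:78668672-78668731 on the minus strand of rn4, and its sequence is given because Fosb is the member called higher in ONC with the array as a block.
Fosb probe: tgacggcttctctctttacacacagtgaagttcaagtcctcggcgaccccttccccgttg
Its level was -2.31, -2.50, -2.17 and -1.94 in the CTR channels and -1.64, -2.30, -1.65 and -1.38 in the ONC channels. ONC2 lay within the range of the CTR channels, and the other ONC channels lay above it. The mean was -2.23 ± 0.24 (SD, n = 4) in CTR and -1.74 ± 0.40 (SD, n = 4) in ONC, a difference of 0.49 (standard error 0.20, 95% interval 0.04 to 0.94) or 1.40 times as high in ONC. Limma's adjusted p was 0.239 without the block and 0.0391 with it, where the standard error was 0.09. The arrays gave 0.67, 0.20, 0.52 and 0.57, all in 1 direction. Without CTR2 and ONC4 the difference was 0.28 (limma adjusted p 0.440).

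Junb encodes a Jun family partner that activates fewer promoters than c-Jun and can restrain it. Its level was 1.98, 1.70, 2.11 and 2.55 in the CTR channels and 1.56, 1.44, 1.39 and 1.60 in the ONC channels. Every CTR channel lay above every ONC channel, with CTR4 the highest and CTR2 the nearest to ONC. The mean was 2.08 ± 0.35 (SD, n = 4) in CTR and 1.50 ± 0.10 (SD, n = 4) in ONC, a difference of -0.59 (standard error 0.16, 95% interval -0.96 to -0.22) or 1.50 times as high in CTR. Limma's adjusted p was 0.113 without the block and 0.0449 with it, and the arrays gave -0.42, -0.26, -0.73 and -0.94. Without CTR2 and ONC4 the difference was -0.75 (limma adjusted p 0.0562). Junb and Fosb, the members called with the block, thus lay on opposite sides of 0, as did Fos and Fosb, on each of the 4 arrays.

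Fos and Junb were the 2 members whose groups did not overlap, beside 2069 of all genes (12.7%). Fos, Fosb, Junb and Ier2 were the 4 members with the same direction on all 4 arrays, beside 6426 genes (39.4%), which is near the members' share. The plot of differences by array shows these 4 beside the members whose arrays pointed both ways.

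**Figure D3:**
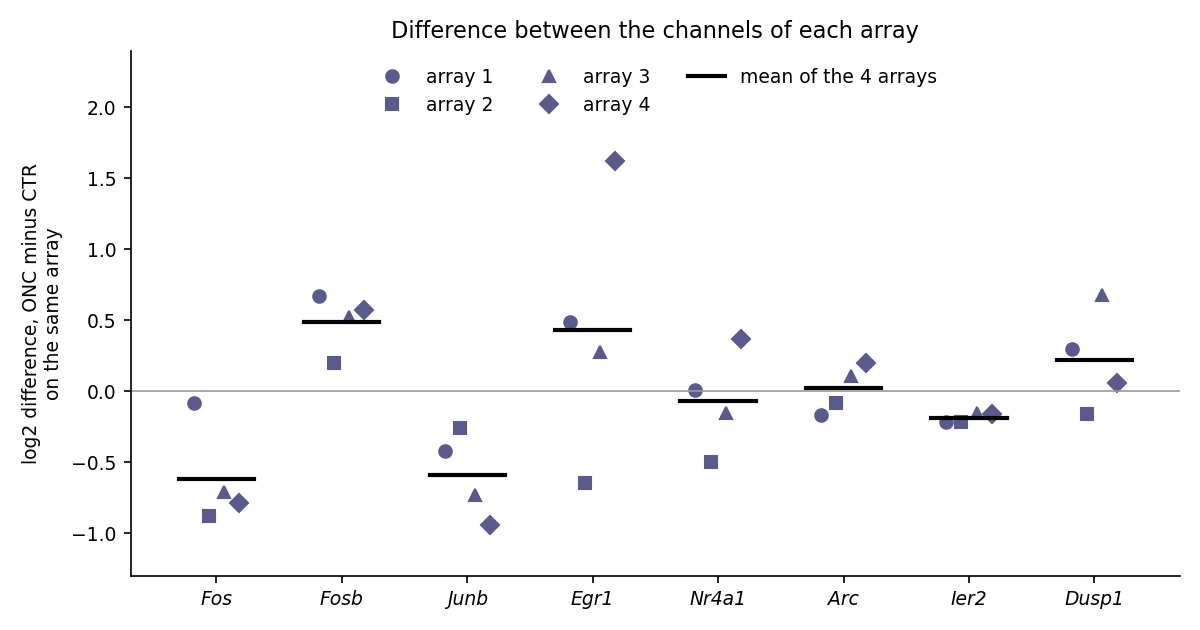
Log2 difference, ONC minus CTR, between the channels of each of the 4 arrays (markers) and their mean (line) for the 8 measured members. Fos, Junb and Ier2 are below 0 and Fosb is above 0 on all 4 arrays, while Egr1 runs from -0.65 to 1.62.

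Egr1 and Egr2 encode zinc finger factors that bind GC-rich sites, Egr1 being induced in neurons and glia and Egr2 known for Schwann cell myelination and hindbrain patterning. The level of Egr1 was -2.22, -1.23, -2.18 and -3.34 in the CTR channels and -1.73, -1.89, -1.91 and -1.72 in the ONC channels. The CTR channels spread to both sides of the ONC channels, with CTR2 high and CTR4 low, and CTR2 is also the CTR channel with high ganglion cell markers. The mean was -2.24 ± 0.86 (SD, n = 4) in CTR and -1.81 ± 0.10 (SD, n = 4) in ONC, a difference of 0.43 (95% interval -0.38 to 1.24, limma adjusted p 0.573). The arrays gave 0.49, -0.65, 0.28 and 1.62. Left-out channels moved it in both directions, to 0.77 without CTR2, to 0.07 without CTR4 and to 0.74 without CTR2 and ONC4 (limma adjusted p 0.171, 0.918 and 0.191). The Egr1 spot in CTR4 was 3.08 times as bright as its background, against 5.89 to 17.3 times in the other channels.

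The 10 spots of Egr2 were 1.36, 1.18, 1.41 and 1.35 times as bright as their background (medians) in the CTR channels and 2.51, 2.44, 2.39 and 2.58 times in the ONC channels. Only 1 of the 80 spot readings of Egr2, in ONC3, was well above background by the scanner software. The higher ratios in ONC come with a background of 26.0 to 30.0 there, against 53.5 to 55.8 in CTR, while the brightness itself was 65.6 to 75.5 in ONC and 67.1 to 78.1 in CTR. No fold is given for Egr2, since neither group is well above background. In limma's fit without the filter its adjusted p was 1 after rounding.

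Npas4 encodes a neuron-specific factor induced by calcium entry and not by growth factors, and its single spot behaved like Egr2. It was 1.33, 1.46, 1.15 and 1.24 times as bright as its background in the CTR channels and 3.01, 2.46, 2.37 and 2.41 times in the ONC channels. Of these 8 readings 0 were well above background, so by that measure Npas4 was not detected in any of the 8 channels. Its adjusted p in limma's fit without the filter was also 1 after rounding.

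Nr4a1 encodes an orphan nuclear receptor (NUR77) that acts without a known physiological ligand. Its level, the mean of 9 of 10 spots, was 1.47, 1.72, 1.62 and 1.31 in the CTR channels and 1.48, 1.22, 1.47 and 1.68 in the ONC channels. The groups overlapped almost fully. The difference was -0.07 (standard error 0.13, 95% interval -0.35 to 0.22, limma adjusted p 0.833), and -0.07 without CTR2 and ONC4 (limma adjusted p 0.743). The median SD between the 9 spots of a channel, 0.24, is that of single spots, and the SD between retinas, each a mean of 9 spots, was 0.18 in CTR and 0.19 in ONC.

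Arc encodes a synaptic protein that assembles into capsid-like particles and promotes the removal of AMPA receptors from the membrane. Its level, from 5 of 10 spots, was -3.25, -3.32, -3.59 and -3.39 in the CTR channels and -3.41, -3.40, -3.48 and -3.19 in the ONC channels. The groups overlapped, with CTR3 the lowest and ONC4 the highest channel. The difference was 0.02 (standard error 0.10, 95% interval -0.22 to 0.25, limma adjusted p 0.956), and -0.02 without CTR2 and ONC4 (limma adjusted p 0.921). The Arc spots were 2.74 to 6.55 times as bright as their background, which is close to the filter. The scaling of the dyes changed its call: with each channel scaled by its median and no loess, the difference was 0.59 (limma adjusted p 0.0196, range over the alternatives 0.0196 to 1), and Arc was called higher in ONC, as Fosb was, while Fos and Junb were called lower.

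Ier2 encodes a small nuclear protein that takes part in transcriptional regulation, and its promoter holds the full cAMP response element, as that of Dusp1 does. Its level, from 8 of 10 spots, was 2.86, 3.03, 2.89 and 2.74 in the CTR channels and 2.64, 2.82, 2.74 and 2.58 in the ONC channels. ONC2 and ONC3 reached into the CTR range, but on each array the ONC channel was the lower. The arrays gave -0.22, -0.22, -0.15 and -0.16, the smallest SD between arrays among the members (0.03). The difference was -0.19 (standard error 0.09, 95% interval -0.40 to 0.03) and did not pass limma's test (adjusted p 0.331, and 0.102 with the array as a block). With CTR2 and ONC4 left out it was -0.10 (limma adjusted p 0.573).

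Dusp1 encodes a nuclear phosphatase that inactivates the MAP kinases p38, JNK and ERK, a feedback on the signals that induce the other members. Its probe is printed because its ends lie 320 bases apart on rn4, at chr10:16944342-16944661 (plus strand), although it has 60 bases.
Dusp1 probe: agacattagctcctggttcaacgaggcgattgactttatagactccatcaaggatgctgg
Its level was -2.56, -2.71, -3.22 and -2.66 in the CTR channels and -2.26, -2.87, -2.55 and -2.59 in the ONC channels. The groups overlapped, with CTR3 the lowest and ONC1 the highest channel. The difference was 0.22 (standard error 0.17, 95% interval -0.17 to 0.61, limma adjusted p 0.546), and the arrays gave 0.30, -0.16, 0.68 and 0.06. It was 0.07 without CTR3, 0.12 without ONC1, 0.26 without CTR2 and ONC4 and 0.56 with median scaling, and limma called Dusp1 in none of these fits.

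The methods estimate how variable the expression of a gene is by the relative expression variability (REV). It is the mid-range of a chi-squared interval for the relative spread of a gene between the retinas of a group, as a percent. The median of all genes was 25.1% in CTR and 21.7% in ONC. The study instead reports slightly higher variability after crush, the opposite direction. Its values came from another normalization and another set of genes, and the groups here rest on the labels, so the comparison is not like for like. Egr1 had the widest difference in REV among the members, 121% in CTR (interval 32.0 to 211) and 15.1% in ONC (interval 3.97 to 26.1). The Junb REV was 54.4% in CTR and 14.9% in ONC, and that of Fos was 42.9% and 20.8%. Fosb went the other way, from 35.2% in CTR to 53.2% in ONC. Dusp1 had 40.4% and 37.3%, and the 3 measured members with 10 spots on each array (Nr4a1, Arc and Ier2) had between 8.59% (Ier2 in ONC) and 17.3% (Nr4a1 in ONC). These 3 are averaged over more spots, so their REV is not compared with that of the members read by 1 spot. The REV values describe the spread, and the difference between groups was not tested.

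Ganglion cell markers and heat shock genes, which respond to handling, are given beside the members because their levels varied between channels of 1 label. The summed level of the 12 ganglion cell genes, as linear intensity over the channel median, was 17.1, 44.3, 19.4 and 25.0 in the CTR channels and 52.3, 51.5, 52.8 and 21.3 in the ONC channels, and Stmn2 gave the brightest signal. In limma's test 1 of the 12 (Isl1) was called higher in ONC, and the list median was 1.16. Without CTR2 and ONC4 limma called 10 of the 12, and the list median was 2.25, values that follow from the choice of these channels by the same list. The heat shock list has 5 symbols, of which Hspa1a and Hspa1b share the array name Hspa1b, so 4 genes were measured. Their summed level was 16.5, 11.2, 15.7 and 18.3 in the CTR channels and 12.6, 10.5, 12.4 and 18.7 in the ONC channels, with Hspa1b the brightest. Heat shock sums were low in CTR2, ONC1, ONC2 and ONC3, the channels with high ganglion cell markers. The median difference of the heat shock list was -0.07, limma called 0 of the 4, and 1 had an unadjusted p under 0.05. In the block fit limma called 1 of the 4, and without CTR2 and ONC4 it called 2, with a median of -0.39. The lens list (9 of 10 genes measured) also set CTR2 apart: their summed level was 80.3, 213, 99.3 and 67.8 in the CTR channels and 59.9, 94.4, 60.0 and 128 in the ONC channels, with Crygs the brightest. The lens list median was -0.39 (-0.26 without CTR2 and ONC4), limma called 0 of the 9 in either fit, and 1 had an unadjusted p under 0.05 in the first. The 9 microglia genes, all measured, had a summed level of 10.6, 10.1, 19.9 and 19.9 in the CTR channels and 7.95, 12.5, 9.76 and 11.9 in the ONC channels, with C1qb the brightest, and were thus highest in CTR3 and CTR4. The microglia list median was -0.35, limma called 0 of the 9, and 3 had an unadjusted p under 0.05. Without CTR2 and ONC4 the median was -0.53 and 1 was called. The study reports immune response genes among those raised after crush, whereas this list was lower in ONC by the labels followed here. The part of these lists in the results for the members was not tested, and in RNA from whole retina fewer cells of a type and less RNA per cell cannot be told apart. Within CTR, Junb was lowest in CTR2, and within ONC it was highest in ONC4, the channels that stood apart from their label by the ganglion cell markers. Fosb was likewise lowest in CTR2 within CTR and highest in ONC4 within ONC, although its difference between the groups had the opposite sign. Ier2 did the reverse, highest in CTR2 within CTR and lowest in ONC4 within ONC. Egr1 and Nr4a1 were highest in CTR2 within CTR and highest in ONC4 within ONC. For Fos, Arc and Dusp1, CTR2 was neither the highest nor the lowest of the CTR channels. Of these, Fos and Arc were highest in ONC4 within ONC, and for Dusp1 ONC4 was neither the highest nor the lowest. The plot of list medians by channel sets the members beside the ganglion cell and heat shock lists.

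**Figure D4:**
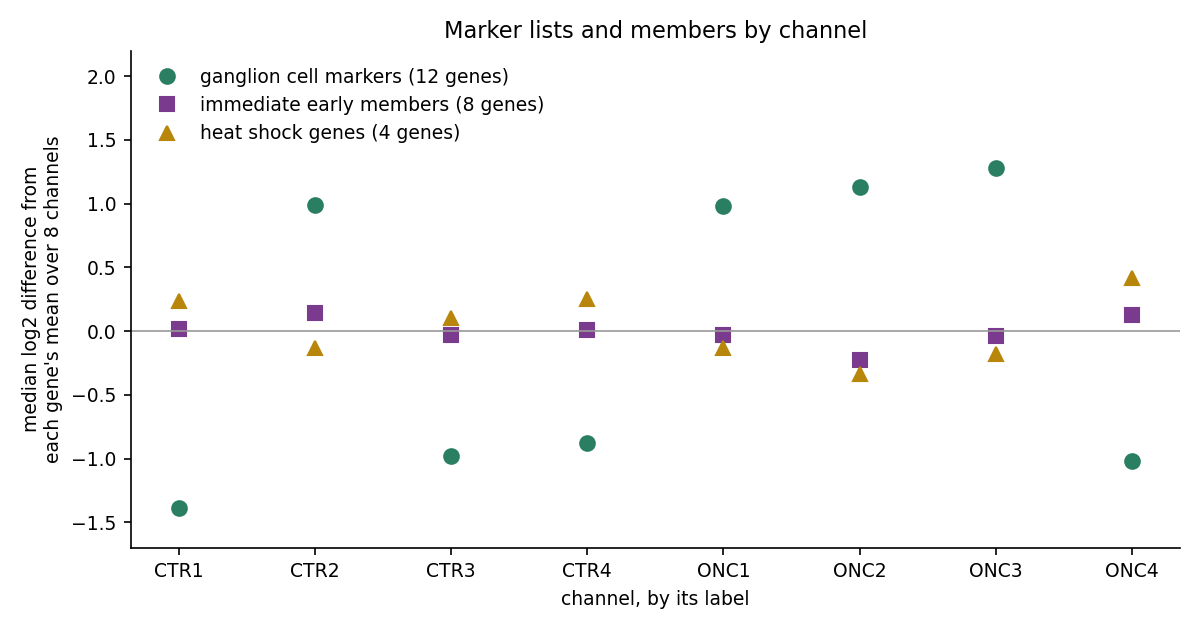
Median log2 deviation from each gene's mean over the 8 channels for the ganglion cell list (12 genes), the 8 measured members and the heat shock list (4 genes), by channel label. The ganglion cell list runs from -1.39 to 1.28, the members from -0.23 to 0.14.

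The genes around the members were read from a pair of hand-written lists. Of 46 other immediate early and activity-induced genes 36 were measured, and Fosl1, Fosl2, Egr3, Nr4a3 and Zfp36 were among the 10 that did not pass the filter. Limma called 0 of the 36, and 10 had an unadjusted p under 0.05, 6 of them higher and 4 lower in ONC, beside 18.6% of all genes. The list median was -0.06. The largest differences in this list were those of Atf3 (-1.09, limma adjusted p 0.385), a stress-induced factor that marks injured neurons, Gadd45b (-0.98, limma adjusted p 0.0942) and Gadd45g (-0.74, limma adjusted p 0.239), which act in DNA demethylation and stress signaling. Each of these 3 was lower in ONC on all 4 arrays, as Fos and Junb were. These directions rest on the labels, which the ganglion cell markers went against. Whether the crush lowered these genes was not tested.

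With the array as a block, limma called 6 of the 36, beside 7.69% of all genes. Jund (0.59), Bhlhe40 (0.56) and Dusp5 (0.33) were higher in ONC, and Atf3, Gadd45g and Klf2 (-0.45) were lower; Jund, Bhlhe40, Dusp5 and Klf2 are named after their values were seen. Without CTR2 and ONC4, limma called 1 of the 36, Gadd45g (-1.20, adjusted p 0.0365), beside 2.54% of all genes. Atf3 was then -1.99 (limma adjusted p 0.0538) and Gadd45b -1.15 (limma adjusted p 0.0883).

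Of 35 upstream kinases, activators and repressors 28 were measured, and Srf, Crebbp and Camk2a were among those that did not pass the filter. Limma called 0 of the 28, 3 had an unadjusted p under 0.05 (2 higher and 1 lower in ONC, beside 18.6% of all genes), and the median was 0.04. The largest differences in this list were those of Prkaca (0.60, limma adjusted p 0.0731), the catalytic subunit of protein kinase A that activates CREB, Rps6ka2 (-0.36, limma adjusted p 0.594), a ribosomal S6 kinase, and Elk1 (-0.33, limma adjusted p 0.315), a ternary complex partner of serum response factor. With the array as a block limma called 3 of the 28, Prkaca higher and Elk1 and Mapk3 (-0.31), the kinase ERK1, lower in ONC, beside 7.69% of all genes, which is near this share. Mapk3 is named after its values were seen. Without CTR2 and ONC4 the differences were 0.55 for Prkaca, -0.73 for Rps6ka2 and -0.47 for Elk1 (limma adjusted p 0.113, 0.164 and 0.134). The plot of companion genes gives the difference of every measured gene of both lists.

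**Figure D5:**
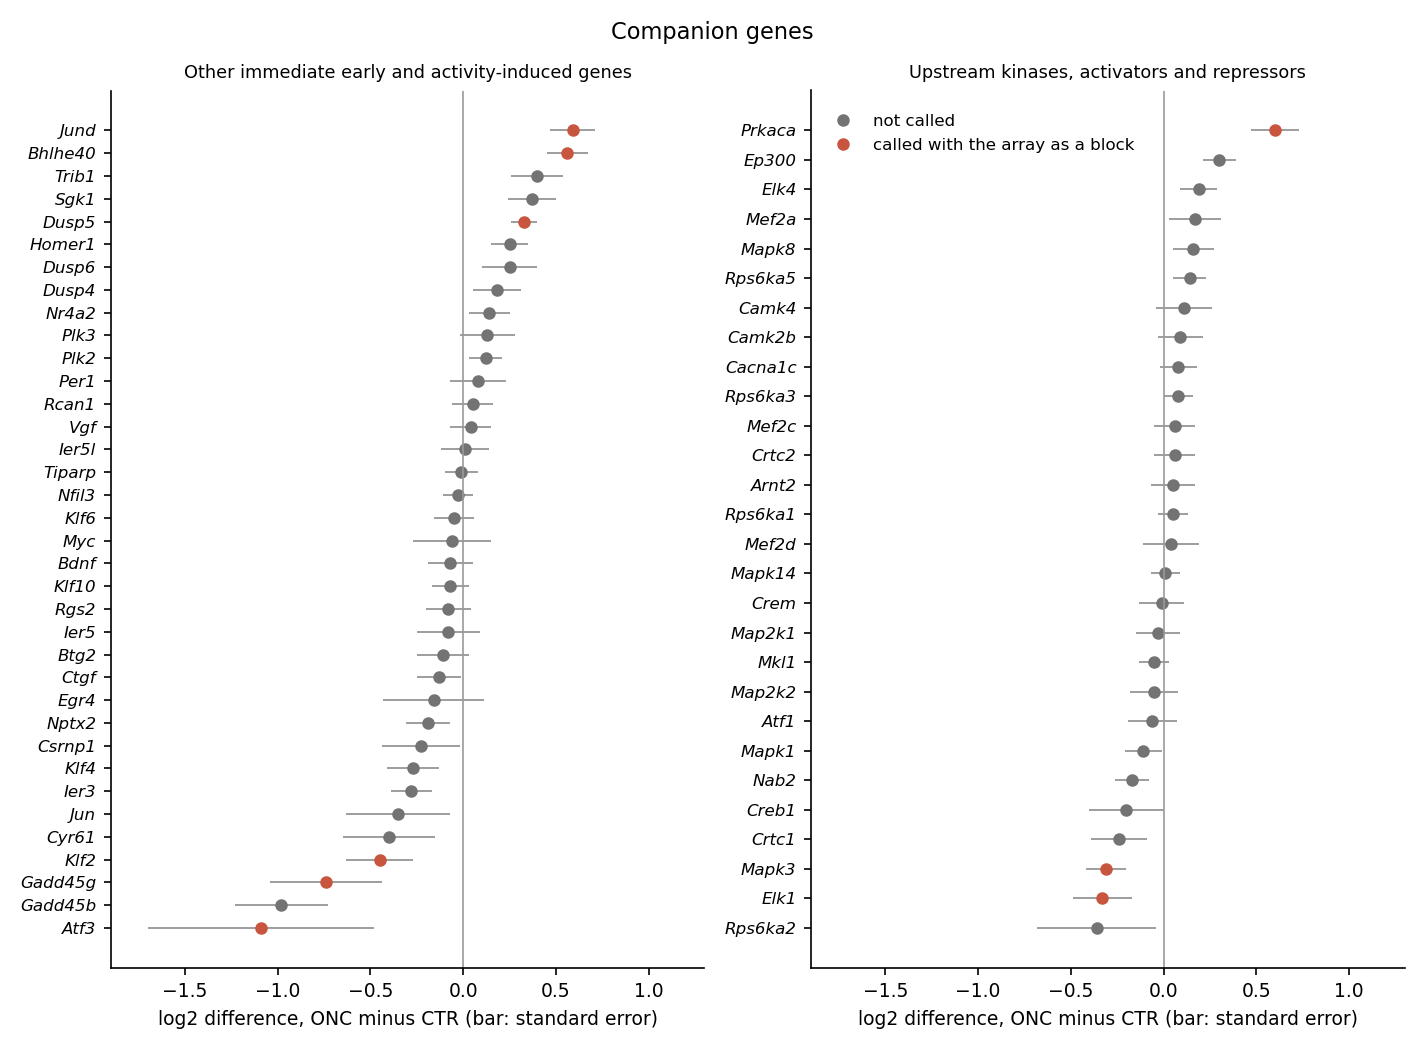
Log2 difference, ONC minus CTR, with its standard error for the 36 measured immediate early and activity-induced genes (left) and the 28 measured upstream genes (right); red points were called by limma with the array as a block. Most genes lie near 0, and Atf3, Gadd45b and Gadd45g lie farthest from it.

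The genes whose pattern was most like that of the members were found by Pearson's r with the mean of the 8 measured members over the 8 channels, after the mean of each label was subtracted. They were Rpl39l (r = 0.94), Sez6 (0.94), Hyou1 (0.93) and the transcripts ENSRNOT00000009054 (0.93) and ENSRNOT00000066487 (0.93), picked out of all genes as the highest. The member mean they followed was highest in ONC4 (0.12 above its label's mean) and CTR2 (0.11) and lowest in ONC2 (-0.17). With 8 channels and a choice among all genes, these coefficients are a description only, and pairs of channels share an array.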

How the data were processed

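RNA from 4 CTR and 4 ONC retinas was hybridized onto 4 two-color Agilent arrays. The values that the authors deposited are spot intensity readings from Feature Extraction 12.0.3.1: mean foreground, median local background and a processed signal. Of 42877 spots that were not controls, 27371 (18599 probes, 16307 genes) were kept. Of the software's outlier flags, the background population flag was not used, a choice made after the number of spots kept was seen. Background was subtracted, arrays were normalized by loess, channels were centered on their medians, and spots and probes were averaged by gene name on the log2 scale. The group comparison used limma 3.58.1 (R 4.3.3, two-sided, Benjamini-Hochberg over all genes, adjusted p under 0.05). It was tested on simulated levels that held no array or dye effect, so that test does not cover these features of the design. Other steps used Python 3.11.15, numpy 2.4.6, pandas 2.3.3, scipy 1.17.1 and matplotlib 3.10.9. Number labels pair the retinas by array. Deviations of same-array channels from their group means correlated at 0.15, 0.55, 0.40 and 0.49 across genes. Between channels of different arrays these correlations were -0.51 to 0.17, so the pair of array 1 did not stand out. The members, the companion lists and the marker lists (retinal cell types, blood, vessels, pigment epithelium, lens, muscle and heat shock) were chosen with earlier results of these data known. Singly named genes are the members, the called genes and 3 largest differences of each companion list, the 5 genes most like the member mean, and defining markers. Alternatives covered background, scaling, filters, the block, left-out retinas and the methods' t-test.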

Additional observations from a re-analysis of the deposited data

Results flagged for a closer look

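A single channel lay far from the other 3 of its group in 3 of 80 groups of 4 values tested, and chance alone gives about 1 in 20. The groups came from the members, differences by array, the singly named companion genes and list medians. Those companion genes had been picked by the size of their difference or by their call. Mapk3 had a log2 level of 5.93 in ONC2, against 6.30 in each of the other ONC channels after rounding. Prkaca had a log2 level of 0.79 in ONC2, against 1.28 to 1.35 in the others. The median deviation of the ganglion cell list was -1.02 in ONC4, against 0.98 to 1.28 in the others. No level of the 8 measured members, and none of their differences by array, was set apart in this way.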

How the results depend on the processing

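Fos and Junb were lower, and Fosb, Egr1 and Dusp1 higher, in ONC under all 19 alternatives run for each member, and Ier2 was lower under all 19. The range was -0.79 to -0.52 for Fos, 0.28 to 0.68 for Fosb, -0.75 to -0.43 for Junb, 0.07 to 0.77 for Egr1, -0.25 to -0.10 for Ier2 and 0.07 to 0.56 for Dusp1. Limma's adjusted p ranged from 0.0410 to 0.384 for Fos, 0.0391 to 0.568 for Fosb and 0.0337 to 0.468 for Junb. The array block called Fosb (0.49) and Junb (-0.59) and 2 members in all, beside 1254 genes, 6 other immediate early genes and 3 upstream genes, and changed no other call of a member. Median scaling without loess called 4 members, Fos (-0.55, adjusted p 0.0410), Fosb (0.66, adjusted p 0.0491), Junb (-0.63, adjusted p 0.0337) and Arc (0.59), beside 3194 genes, 71.0% of them higher in ONC against 46.9% of the 81. The median was then 0.23 for the members and 0.07 for all genes, and the companion lists had 8 and 4 genes called with medians of 0.02 and 0.10. The cause was not tested, here or for the counts that follow.

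Nr4a1 changed sign to 0.01 with processed signals and without ONC2, and Arc to -0.07 with processed signals, -0.05 for spots well above background in all channels, -0.05 without CTR3 or without ONC4, -0.02 without CTR2 and ONC4 and -0.10 in CTR2, CTR4, ONC1 and ONC3 alone. Leaving out 1 retina at a time gave -0.14 to 0.01 for Nr4a1 and -0.05 to 0.06 for Arc. Limma called 14 genes with normexp background, 21 with processed signals, 412 with Aquantile scaling (3 and 1 in the companion lists), 123 among spots well above background, 124 by the brightest probe and 415 without CTR2 and ONC4 (1 other immediate early gene). It called 0 without the filter (1957 at an unadjusted p under 0.05) and 0 in the 4 channels above (1961 unadjusted). Leaving out 1 retina at a time gave 0 to 38 genes, 38 without ONC2 and 0 without any other (2085 to 3252 unadjusted), and 0 members each time. It gave 0 to 1 upstream genes, with a median of -0.01 to 0.04, and a median of -0.07 to 0.03 for the other immediate early genes. The upstream median was 0.00 with processed signals, -0.02 without CTR2 and ONC4 and -0.01 with all 4 outlier flags, an alternative chosen after seeing the data. The methods' t-test gave 2682 genes and 1 member before adjustment, 0 after it, and 503 genes with the fold-change threshold.

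REV moved beyond its spread in 29 of 176 values. Arc in CTR was 23.0% with processed signals and 5.63% without the filter, and in ONC 17.2% with normexp background and 17.9% with median scaling. Without the filter Nr4a1 was 21.6% in CTR and 11.5% in ONC, and Ier2 18.9% and 16.7%, and with median scaling Egr1 in ONC was 27.2%. With 1 retina left out the interval behind REV is wider by construction, and REV, its mid-range, is raised with it for the same spread. The ranges that follow thus do not show dependence on single retinas alone. The range was then 31.3% to 83.7% for Fos, 39.2% to 68.5% for Fosb, 48.8% to 106% for Junb, 131% to 228% for Egr1 and 18.4% to 78.6% for Dusp1 in CTR. In ONC it was 18.7% to 39.5% for Fos, 37.4% to 104% for Fosb, 19.7% to 27.0% for Junb, 12.8% to 20.6% for Nr4a1, 5.33% to 13.4% for Arc and 39.4% to 72.4% for Dusp1.

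The number of arrays, 1 spot for each of 5 measured members, the confounding of dye with group and the markers that go against the labels limit these results. Signal over background limits Egr2, Npas4 and Arc most.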

Other observations

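The 8 spots of Ier2 kept on each array had an SD between spots of 0.13 (median over channels, highest 0.18), and its SD between retinas, each a mean of these spots, was 0.12 in CTR and 0.10 in ONC. The 5 kept spots of Arc had 0.12 (highest 0.30), and 0.15 and 0.13 between retinas.

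Values of further marker lists were as follows. The 6 cone genes had a median log2 difference of -0.32, ONC minus CTR, with -0.38, -0.29, -0.29 and -0.20 on the 4 arrays. Limma called 0 of the 6 (3 at an unadjusted p under 0.05), and 2 in the block fit, both lower in ONC. For Muller glia, 7 of 8 genes were measured and the median was -0.23. Limma called 0 of these 7 (2 at an unadjusted p under 0.05), 2 in the block fit, both lower in ONC, and 1 without CTR2 and ONC4, where the median was -0.35. The amacrine list had a median of 0.02 (-0.04 without CTR2 and ONC4), with 0 of 10 called by limma, 3 at an unadjusted p under 0.05 and 1 called with the block. Limma called 0 genes of the horizontal, endothelium and pericyte, blood and extraocular muscle lists with or without the block, and 0 of them had an unadjusted p under 0.05. Their medians were -0.06, 0.04, 0.22 and -0.12, and -0.07, -0.08, 0.15 and -0.30 without CTR2 and ONC4. The pigment epithelium list had a median of 0.15 (-0.02 without CTR2 and ONC4, and 0.44, -0.39, 0.76 and 0.07 on the arrays), with 0 of 6 called by limma with or without the block and 1 at an unadjusted p under 0.05.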
